A study of Rattus norvegicus with 4 samples.

Results

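The genes for the proteins of the cytosolic ribosome were followed through 4 RNA-seq libraries of 9-week-old Sprague Dawley rats. The libraries were made from whole choroid plexus of males, whole choroid plexus of females, choroid plexus epithelial cells of males, and proximal tubules of male kidneys. The epithelial cells were freed by collagenase digestion and pipetting, labelled with an antibody against the cotransporter NKCC1 and captured by FACS. The tubules were freed by enzyme digestion and collected by hand. For the whole choroid plexus the methods state no digestion. No experimental treatment and no genetic change is stated for the animals, which were anaesthetized with xylazine and ketamine before the tissue was taken. Each condition was 1 library from a pool of rats, 10 for the FACS cells and 5 for each of the others, so no spread between animals could be measured and no p-value is given. The study's methods take the kidneys from the male rats, so the male choroid plexus and proximal tubule pools may hold the same animals. The members were all gene IDs whose name begins with RPL or RPS and a digit, or with RPLP or RPSA, among the 1998 gene IDs that had a name in a list of the most transcribed genes of the male choroid plexus. Kinases of ribosomal protein S6 and proteins of the mitochondrial ribosome were left out. There were 78 such IDs under 73 symbols, of 32883 gene IDs in all, and 5 symbols had 2 IDs each. The list went down to 57.79 TPM (transcript abundance scaled per length and to a common total in each library) in the male choroid plexus, and the members nearest to its end were RPL7 at 71.1 TPM and RPL36A at 88.1 TPM. Ribosomal protein genes below that level, or without a name in the list, were not used here. All 78 IDs passed the 0.5 TPM cut-off by the way the list was made.

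A cytosolic ribosome is built from ribosomal RNA and a large set of small proteins, each as a rule present in the same number of copies. The small subunit reads the messenger RNA, the large subunit forms the peptide bonds, and a stalk made of RPLP0, RPLP1 and RPLP2 on the large subunit recruits the translation factors. Messenger RNAs of ribosomal proteins typically begin with a C followed by a stretch of C and T (the terminal oligopyrimidine tract), through which mTOR signalling adjusts the translation of the whole set together. The epithelium of the choroid plexus secretes cerebrospinal fluid and large amounts of proteins such as transthyretin.

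Among the 78 IDs, 31 belonged to the small subunit, 44 to the large subunit and 3 to the stalk. RSEM, the program behind the values, divides the count of a gene by its effective length, the number of positions from which a fragment could come. For 5 of the IDs (RPL36, RPS21, RPL38 and both IDs of RPL35AL1) this length was under 50 bases in at least 1 library, so that a few reads give a high TPM. They are described apart, and the text below covers the other 73 IDs (30 of the small subunit, 40 of the large subunit and 3 of the stalk) unless it says otherwise.

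The start regions of these genes are shown because the tract at the start of the message is the feature that the set is known to share. The lines below give 40 bases before and 10 bases from the annotated start on, from RefSeq on the rat build GRCr8, for the 3 stalk genes, for RPS6, RPSA and RPS10, which had the lowest ratios of the proximal tubule to the male choroid plexus together with RPLP0 and RPLP2, and for RPS28, RPL35, RPS3A and RPL36A, which had the highest. Capitals mark the longest run of C or T. Starts were matched by symbol. For RPS10 the low place was that of ENSRNOG00000052141 (log2 ratio -7.59), while ENSRNOG00000000490 had -2.25. To which of these IDs the start shown belongs was not tested.
RPLP0, chr12:46718381-46718430, minus strand: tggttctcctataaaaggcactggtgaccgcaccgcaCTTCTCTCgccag
RPLP1, chr8:71290863-71290912, minus strand: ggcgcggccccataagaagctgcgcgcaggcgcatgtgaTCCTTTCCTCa
RPLP2, chr1:205975881-205975930, plus strand: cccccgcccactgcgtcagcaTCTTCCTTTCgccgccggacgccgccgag
RPS6, chr5:106420531-106420580, minus strand: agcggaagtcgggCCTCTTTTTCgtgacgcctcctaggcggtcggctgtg
RPSA, chr8:128728839-128728888, plus strand: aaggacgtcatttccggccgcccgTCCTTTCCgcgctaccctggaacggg
RPS10, chr20:5700735-5700784, minus strand: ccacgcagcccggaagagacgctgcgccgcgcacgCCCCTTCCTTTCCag
RPS28, chr7:15311324-15311373, minus strand: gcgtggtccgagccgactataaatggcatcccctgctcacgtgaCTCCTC
RPL35, chr3:43165912-43165961, minus strand: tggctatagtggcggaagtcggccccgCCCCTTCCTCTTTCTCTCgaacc
RPS3A, chr2:173827033-173827082, minus strand: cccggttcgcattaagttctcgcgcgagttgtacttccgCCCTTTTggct
RPL36A, chrX:102059409-102059458, plus strand: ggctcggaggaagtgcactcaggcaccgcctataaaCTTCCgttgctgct

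Of the 73 symbols, 58 had an entry among the 27457 genes of the RefSeq table. A C at the annotated start followed by at least 4 bases that were each C or T stood in 18 of the 58 (31.0%), RPLP0, RPLP1, RPL35 and RPS3A among them, against 2.63% of all genes in the table. A run of at least 8 C or T in the 50 bases shown was found in 42 of the 58 (72.4%), against 20.9% of all genes, and the longest run had a median of 10 bases in the members against 5 in all genes. In RPS6, 17 bases lay between the run and the annotated start. In the 300 bases around the start (250 before, 50 after), the sequence CCGGAAG on either strand, a form of the site of ETS factors, was present in 18 of the 58 (31.0%) against 9.22% of all genes, and GCCATNTT on either strand, a form of the YY1 site, in 7 (12.1%) against 7.36%. TATAAA in the 40 bases before the start, on the strand of the gene, was present in 3 (5.17%) against 1.89%. These matches describe letters only. The searches other than the first were chosen after values had been seen.

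In all 4 libraries the ribosomal protein genes held about the same share of the TPM. The 73 IDs made up 4.30% of all TPM in male and 4.36% in female choroid plexus, 3.96% in the FACS cells and 4.25% in the proximal tubule. In expected counts, which are not divided by length, the shares were 1.28% (95% Wilson interval 1.27 to 1.28%), 1.39% (1.38 to 1.39%), 1.48% (1.48 to 1.49%) and 1.79% (1.78 to 1.79%) in the same order. The libraries held 23873318 to 28324976 expected counts in all, and the intervals cover counting error only. The proximal tubule differed in what made up the rest: mitochondrially encoded genes took 70.7% of its counts and 4.32 to 5.34% in the other 3 libraries. With the 13 mitochondrially encoded genes removed, the ribosomal protein share of TPM was 4.70%, 4.66% and 4.22% in the male, female and FACS libraries and 15.3% in the proximal tubule. The small subunit then held 1.90% of TPM in the male choroid plexus and 6.35% in the proximal tubule, and the large subunit with its stalk 2.80% and 8.91%.

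Marker genes were read for each label. The 12 genes of the choroid plexus epithelium summed to 262000 TPM in the male, 307000 in the female and 408000 in the FACS library and to 80.7 in the proximal tubule, where KCNJ13, CLIC6, SLC4A5, HTR2C, OTX2, ENPP2 and IGFBP2 were listed at 0. Transthyretin (TTR) carried these sums, at 239000, 286000 and 390000 TPM in the choroid plexus libraries. Only TTR, FOLR1 and IGFBP2 of the 12 were higher in the FACS cells than in the male tissue, and the other 9 were not. The 8 proximal tubule markers summed to 2170 TPM in the proximal tubule and to 108 to 129 TPM in the other libraries, with SLC7A13 alone at 2060 TPM in the tubule. Higher there than in the male choroid plexus were 5 of the 8, and 7 with mitochondrially encoded genes removed from both. The FACS cells were not free of other cell types: all 4 immune markers were higher there than in the male tissue (4590 against 837 TPM), the 5 endothelial markers, 4 of them higher, summed to 254 against 171 TPM, and the 3 markers of stroma, 2 of them higher, to 312 against 205 TPM, while the 3 haemoglobin genes summed to 1570 against 8110 TPM.

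Within the male choroid plexus, the levels of the ribosomal protein genes lay close together, in a list that had left out all levels below 57.79 TPM. The median was 536 TPM, the quartiles were 327 and 731 TPM, and 55 of the 73 IDs lay within 2-fold of the median. RPL41, whose product is a very short peptide of the large subunit, was the highest, with 3088 TPM in the male, 3442 in the female, 3127 in the FACS and 3355 in the proximal tubule library. It led the set in every library. RPLP1 of the stalk followed in the male tissue with 1857 TPM, then RPS27A, which is made as a fusion with ubiquitin, with 1546 TPM, RPS15A of the small subunit with 1200.2 TPM and RPL34 of the large subunit with 1137 TPM. At the low end stood RPL7 with 71.1 TPM, RPL36A with 88.1 TPM and one of the IDs of RPS19L2 (ENSRNOG00000037897) with 93.8 TPM, so that the highest was 43.4 times the lowest.

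**Figure D1:**
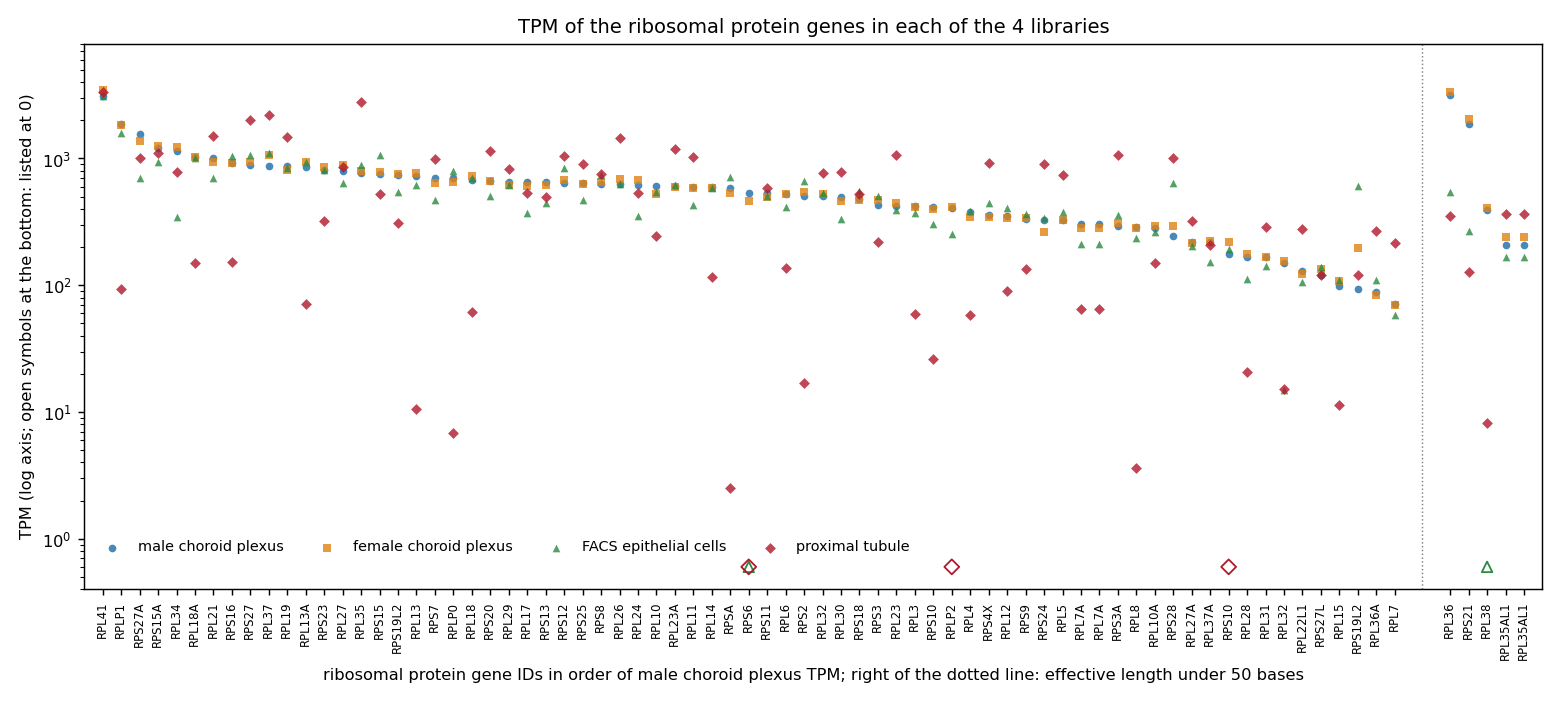
TPM (log axis) of single ribosomal protein gene IDs in the 4 libraries, ordered by the male choroid plexus, with the 5 IDs of short effective length to the right of the dotted line. Male, female and most FACS symbols lie on each other, while the proximal tubule runs from 3355 TPM for RPL41 down to 2.50 TPM for RPSA and to open symbols for genes listed at 0.

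The low place of RPL7 went with the length of its model. Its effective length in the male library was 4879 bases, where the median over the 73 IDs was 325 bases, and its 8503 expected counts were above the median of 4238. Across the 73 IDs, TPM and effective length had a Spearman rho of -0.44 in the male library, and counts and length one of 0.58. These correlations are across genes of 1 library, which share its depth, and are given as descriptions. The members were also shorter than genes in general, whose median effective length in the male library was 1850 bases over all genes that passed the cut-off.

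The order of the genes was shared by the choroid plexus libraries and much less by the proximal tubule. Between male and female tissue, Spearman rho over the 73 IDs was 0.989, and between the male tissue and the FACS cells it was 0.796, where the 1998 named genes of the list gave 0.967 and 0.798. Between the male choroid plexus and the proximal tubule rho was 0.432, against 0.305 for the named genes. The levels were also more spread out in the tubule. The members came from a list cut at 57.79 TPM in the male choroid plexus, which left out low male levels and set no such floor in the other libraries. How much of the difference in spread comes from this rule was not tested. The standard deviation of log2 TPM over the IDs above 0 was 1.05 in the male, 1.02 in the female, 1.16 in the FACS and 2.37 in the proximal tubule library, and the upper quartile was 2.24, 2.46, 2.11 and 10.4 times the lower. Within 2-fold of the median of their library (536, 527, 468 and 310 TPM) lay 55, 54, 51 and 17 of the 73 IDs.

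**Figure D2:**
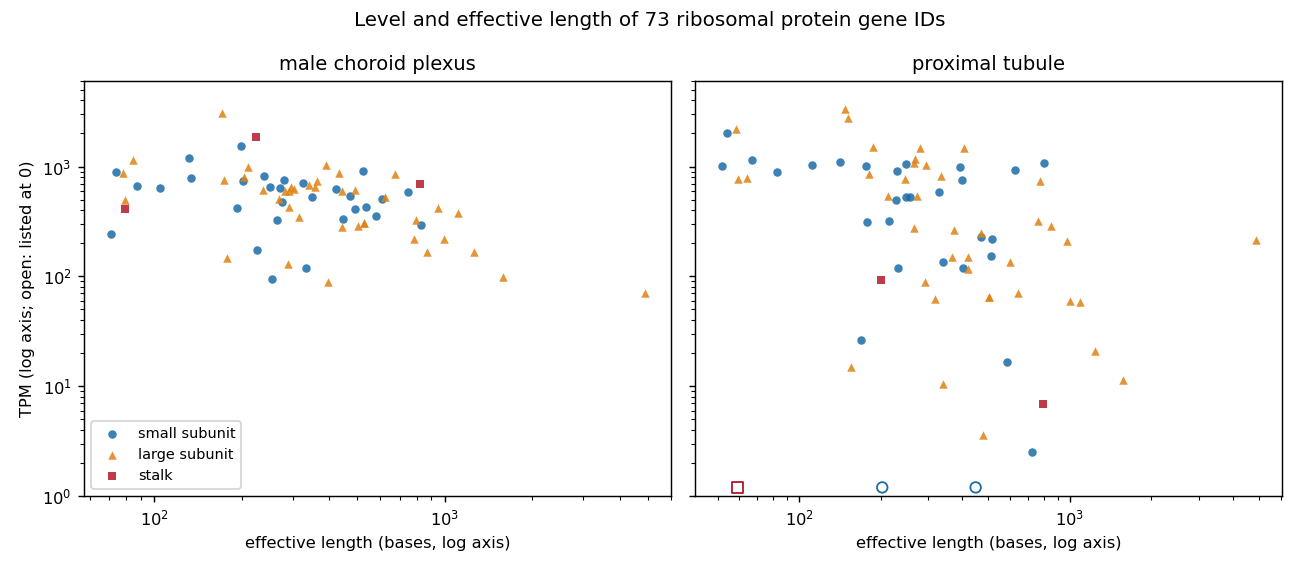
TPM against effective length, both on log axes, for the 73 IDs in the male choroid plexus (left) and the proximal tubule (right), with small subunit, large subunit and stalk marked. In the male tissue all 73 IDs lie between 71.1 and 3088 TPM, where the list they came from left out levels below 57.79 TPM. In the tubule, genes of like length lie much further apart, such as RPS3A at 1069 and RPLP0 at 6.85 TPM, and 3 are listed at 0.

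Male and female choroid plexus, compared to see whether the sexes differ in this tissue, gave nearly the same levels for the set. The log2 ratio of female to male, computed on TPM with 1 added, had a median of -0.01 over the 73 IDs and of -0.16 over all 13869 genes at or above 0.5 TPM in either library. Against all genes of at most 1000 bases of effective length, whose median was -0.03, the members were level. At least 2-fold higher in the female was 1 of the 73 IDs, against 0.44% of all genes, and at least 2-fold lower were 0, against 0.959%. The exception was the RPS19L2 ID ENSRNOG00000037897, whose level of 93.8 TPM in male tissue compared with 197 TPM in female tissue (586 and 1196 expected counts). The next ratios were much smaller. RPS10 ENSRNOG00000052141 had a log2 ratio of 0.32, RPL37 0.28, RPS28 0.27 and RPS27L 0.17, and at the other end RPS24 had -0.33, RPS6 -0.22, RPL10 -0.21 and RPS27A -0.16. Exact 95% intervals of the count ratio lay above 0 for 21 of the 73 IDs, below 0 for 16 and held 0 for 36, which covers counting error and not the difference between animals.

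Epithelial cells captured by FACS were set against the whole male tissue, which asks what the epithelium itself transcribes. In the median, the ribosomal protein genes stayed near their level in the male tissue, while genes in general were lower. Their median log2 ratio of FACS to male was -0.08 (0.33 with the 10 highest genes of each library removed), where all 14024 genes tested had a median of -0.58 (-0.25 with the same genes removed), all genes of at most 1000 bases -0.44 and the named genes of the list -0.66. Of the 73 IDs, 32 lay above 0 and 63 above the median of all genes. At least 2-fold lower in the FACS cells were 4 IDs (5.48%), against 25.5% of all genes, and at least 2-fold higher were 2 (2.74%), against 4.61%. In a bulk library, fewer cells of a type and less RNA per cell cannot be told apart. The part of the immune cells, whose markers were higher in the FACS library (4590 against 837 TPM), in these ratios was not tested. Nor was the part of the digestion and sorting, steps that are not stated for the whole tissue.

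The other lists of translation and energy metabolism all had medians below that of the ribosomal protein genes in the FACS cells, some above and some below the -0.58 of all genes. Of the 25 translation factors named EEF or EIF in the list, which load, move and release the ribosome, all 25 lay below 0, with a median of -0.60, from EIF4G1 at -1.42 to EIF3G at -0.03, and 4 were at least 2-fold lower. The 26 genes of the mitochondrial ribosome had a median of -0.73, with 23 below 0, from MRPL33, which was listed at 0 in the FACS library, to MRPL14 at 0.70. The 75 nuclear genes of oxidative phosphorylation had a median of -0.80, with 70 below 0, from NDUFA1 at -5.31 to NDUFA13 at 0.44. The 14 other genes known for a terminal oligopyrimidine tract had a median of -0.37, from EEF1A1, the elongation factor that brings the aminoacyl-tRNA, at -0.76 to VIM at 1.07. In 5 genes of ribosome assembly the median was -0.40, from NOP10 at -0.99 to NOP53 at 0.69. Vimentin is a filament protein of stromal and immune cells among others, and was at 81.9 TPM in the male, 64.5 in the female and 173 in the FACS library.

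**Figure D3:**
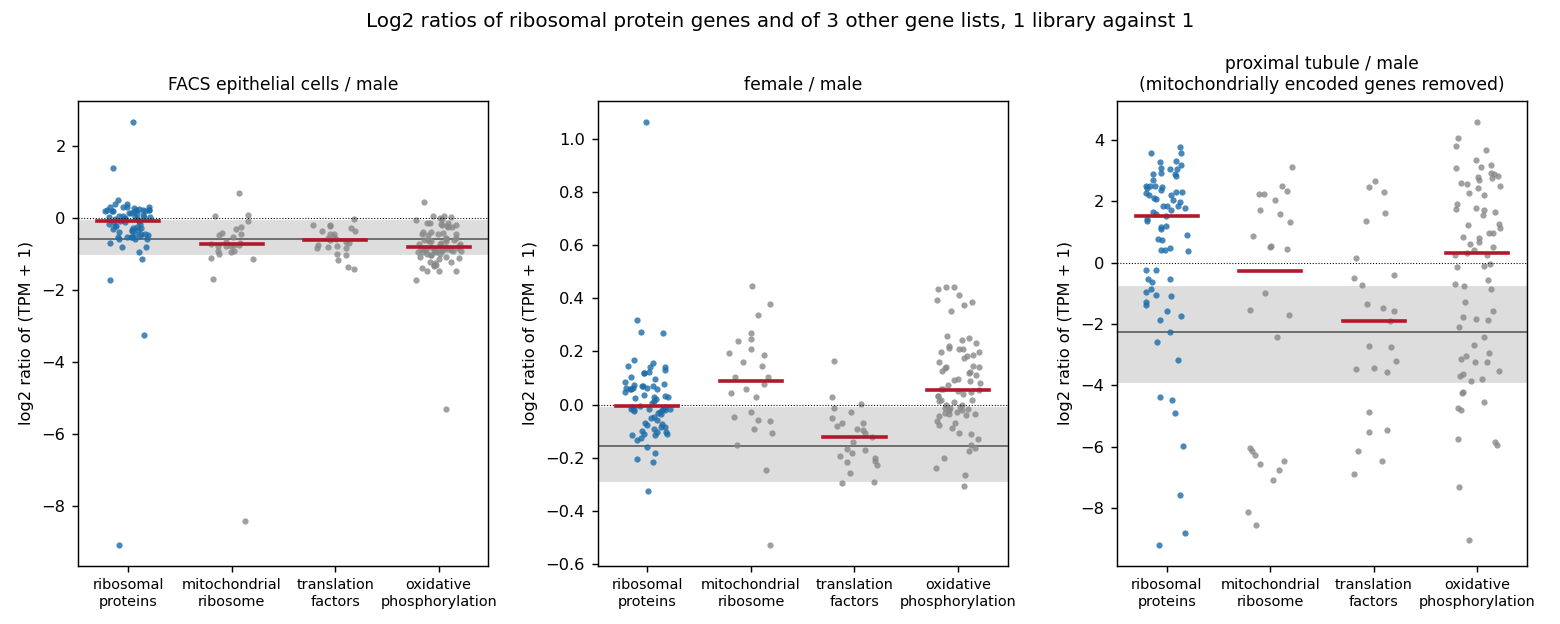
Log2 ratios (TPM with 1 added, 1 library against 1) of the 73 ribosomal protein IDs in blue and of 3 other lists in grey, with the median of each list in red, the median of all genes tested as a grey line and its quartiles as a grey band. The ribosomal protein median is -0.08 against -0.58 for all genes in the FACS panel, -0.01 against -0.16 in the female panel and 1.51 against -2.27 in the proximal tubule panel, and the axes differ between panels.

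By subunit, 19 of 30 small subunit IDs and 12 of 40 large subunit IDs lay above 0 in the FACS cells, with medians of 0.13 and -0.13. In the stalk, RPLP0 had 695 TPM in the male, 648 in the female and 796 in the FACS library, RPLP1 had 1857, 1823 and 1591 TPM, and RPLP2 had 409, 418 and 253 TPM. The log2 ratios of FACS to male were 0.19 (95% counting interval 0.16 to 0.23), -0.22 (-0.27 to -0.18) and -0.69 (-0.87 to -0.52), so these partners of one complex moved apart by more than counting error. RPLP2 had a short effective length, 79.1 bases in the male and 64.4 in the FACS library, and the same counts as a second ID. The intervals do not include errors from length or from shared reads, whose part was not tested. RPS28, a small subunit protein where the message leaves the ribosome, had 244 TPM in the male, 295 in the female, 642 in the FACS and 1017 in the proximal tubule library. It was 2.63-fold higher in the FACS cells than in the male tissue, but its effective length of 71.0 bases in the male library is among the shortest. RPS15, RPS12 and RPS2 of the small subunit followed with log2 ratios of 0.49, 0.39 and 0.39.

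RPL34 had 1137 TPM in the male, 1239 in the female, 344 in the FACS and 781 in the proximal tubule library, and was 3.30-fold lower in the FACS cells than in the male. RPS27A had 1546, 1384, 703 and 1012 TPM in the same order and was 2.20-fold lower. Both whole tissues lay above the FACS cells for these genes. The effective length of RPL34 was also short, at 84.6 bases in the male and 69.6 in the FACS library. The place of the proximal tubule depended on the scale: with mitochondrially encoded genes removed, RPL34 had 1240.4 TPM in the male choroid plexus and 2801 in the tubule, and RPS27A had 1688 and 3631 TPM, so that both were over 2-fold higher in the tubule. The other IDs at least 2-fold lower in the FACS cells were 1 of 2 RPL32 IDs and RPS6, and for both a second ID enters the reading.

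RPS6, the small subunit protein that S6 kinases phosphorylate downstream of mTOR, was listed at 0 in the FACS cells and the proximal tubule. Its ID ENSRNOG00000049025 had 6196 expected counts (536 TPM) in the male, 5205 (461 TPM) in the female and 0 in both other libraries. Set against a floor of 3 counts per library, it was at least 2120-fold lower in the FACS cells than in the male tissue and, with mitochondrially encoded genes removed, at least 919-fold lower in the proximal tubule. An unnamed ID, ENSRNOG00000007663, showed the opposite course with 519, 653, 5714 and 16918 expected counts. The sum of both IDs was 6715, 5858, 5714 and 16918 counts, which gives log2 ratios to the male tissue of -0.37 in the FACS cells, -0.17 in the female and 2.40 in the proximal tubule, values within the range of the other members. Among all genes, 16 IDs had at least 1000 counts in the FACS and the proximal tubule libraries and fewer in both whole tissues. Of them, only the unnamed ID had counts not whole (within 0.001) in both whole tissues and whole in the other 2 libraries. RSEM gives counts that are not whole where it divides reads between genes. The counts of RPS6 and the unnamed ID were 6195.51 and 519.49 in the male and 5204.6 and 653.4 in the female, with the whole sums given above. The unnamed ID and these conditions were picked after its values were seen, so that it met them is no support. Whether it is a copy of RPS6 was not tested.

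**Figure D4:**
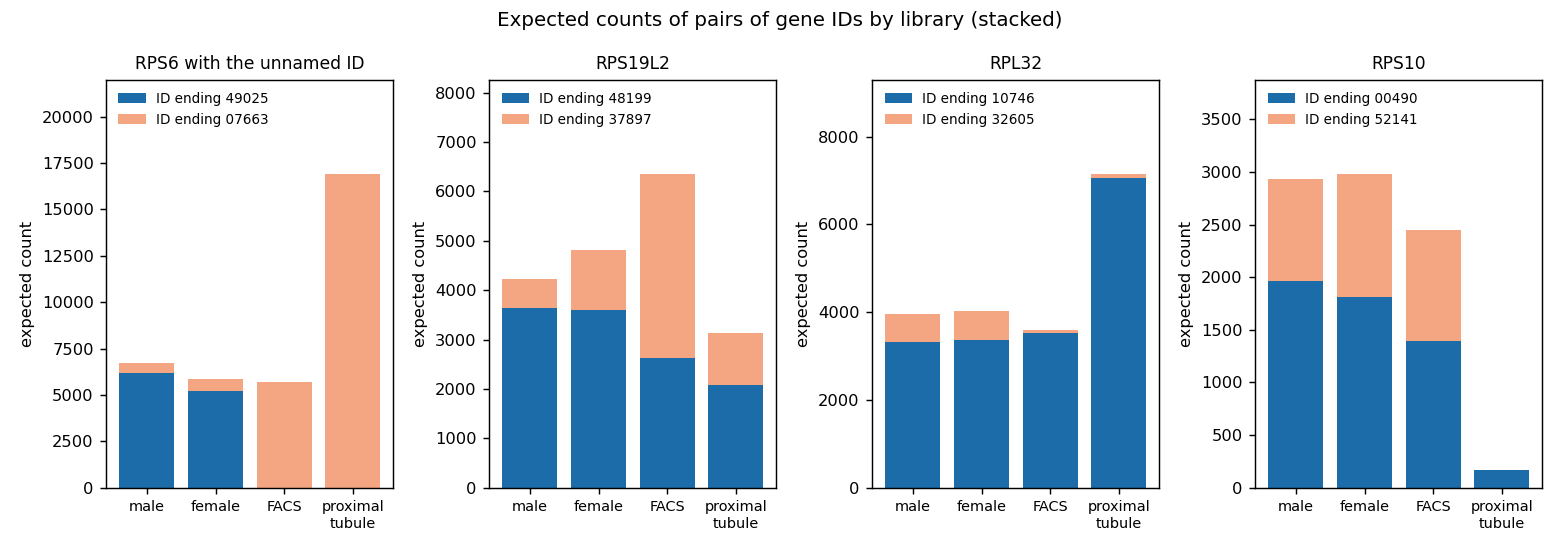
Expected counts, stacked, of 4 pairs of gene IDs in the 4 libraries, for RPS6 with the unnamed ID and for the 2 IDs each of RPS19L2, RPL32 and RPS10. The RPS6 ID holds 92.3% of its pair in the male tissue and 0.0% in the FACS cells and the proximal tubule, while the sum of that pair runs from 5714 to 16918 counts over the libraries.

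In the named pairs, too, the share of each ID changed between libraries. RPS19L2, named as like the small subunit protein RPS19, had 3647 counts in the male, 3609 in the female, 2623 in the FACS and 2089 in the proximal tubule library under one ID (ENSRNOG00000048199) and 586, 1196, 3732 and 1045 under the other (ENSRNOG00000037897). The share of the first ID was thus 86.2%, 75.1%, 41.3% and 66.6%. The second ID was 6.42-fold higher in the FACS cells than in the male tissue, the highest ratio among the 73 IDs, while the sum of both had a log2 ratio of 0.46. RPL32 had 83.6% of its counts on ENSRNOG00000010746 in the male and 98.3% in the FACS cells. The other ID, ENSRNOG00000032605, had 148 TPM in the male, 155 in the female, 14.9 in the FACS and 15.1 in the proximal tubule library, whereas the sum of both had a log2 ratio of -0.24 in the FACS cells. The 2 IDs of RPS10 had 1966 and 971 counts in the male and 169 and 0 in the proximal tubule, and their sum had log2 ratios of -0.25 in the FACS cells and -2.76 in the proximal tubule. With the IDs that share a symbol left out, 1 of 65 IDs (RPS28) was at least 2-fold higher in the FACS cells, and 0 of 65 in the female.

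Some members shared every value with another ID. Both IDs of RPL7A had the same length and the same counts in all libraries (3920, 3541, 2816 and 1221), and so did both IDs of RPL35AL1, RPLP2 and LOC100911575, RPL8 and LOC108348142, and RPL38 with 3 IDs that have LOC names. Such identical sets held 7 of the 78 member IDs and 84 IDs among all genes with at least 10 counts in a library. Each ID of a set was given the same count, and whether a set is 1 gene or several loci of the same sequence was not tested. The sum over the set was, for RPLP2, 819 TPM in the male, 836 in the female, 507 in the FACS and 0 in the proximal tubule library. Ratios between libraries are the same for one ID and for the sum, apart from the effect of the added 1. Values of these genes, and of every pair above, are uncertain as levels of a single gene.

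Of the other like genes, RPL22L1, a relative of the large subunit protein RPL22, had 129 TPM in the male, 123 in the female, 105 in the FACS and 277 in the proximal tubule library. RPS27L, a relative of RPS27 that p53 induces, had 120.3, 135, 140.2 and 120.5 TPM, where RPS27 itself (named for this comparison) had 894, 939, 1070.4 and 2014 TPM. RPS27 was above RPS27L in all 4 libraries.

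Proximal tubule and choroid plexus are both epithelia that move much fluid, and the kidney library was set against the male choroid plexus with the mitochondrially encoded genes removed from both. The ribosomal protein genes then split into a larger group far above and a smaller group far below the choroid plexus. At least 2-fold higher in the proximal tubule were 42 of the 73 IDs (57.5%), against 12.1% of all 14227 genes tested, at least 2-fold lower were 17 (23.3%), against 71.0%, and 14 lay between. The lower IDs include RPS6 and 1 RPL32 ID, whose sums with a second ID had log2 ratios of 2.40 and 1.97. They also include both IDs of RPS10 (sum -2.76). Among the higher IDs, RPS19L2 ENSRNOG00000037897 had 2.06 and its pair sum 0.76. Without the IDs that share a symbol, 40 of 65 were higher and 14, RPS6 among them, lower. The median log2 ratio was 1.51, against -2.27 for all genes, -1.50 for genes of at most 1000 bases and -4.17 for the named genes of the list, which were chosen for a high level in the male choroid plexus. The direction of the member median rests on the removal of the mitochondrially encoded genes. With them kept, the median was -0.20 against -2.70 for all genes, with 13 IDs at least 2-fold higher and 28 at least 2-fold lower.

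The 3 stalk genes were each at least 2-fold lower in the tubule, as were 71.0% of all genes tested. Without mitochondrially encoded genes, RPLP0 had 759 TPM in the male choroid plexus and 24.6 in the proximal tubule (13990 and 206 counts), RPLP1 had 2027 and 333 TPM (10196 and 703 counts), and RPLP2 had 447 and 0 TPM (793 and 0 counts). RPLP0 was thus 30.9-fold and RPLP1 6.08-fold lower, and RPLP2, against the floor of 3 counts, at least 92.7-fold lower. With mitochondrially encoded genes kept, all 3 were lower as well, at 695, 1857 and 409 TPM in the male tissue and 6.85, 92.9 and 0 TPM in the tubule. RPSA, a small subunit protein also known as the laminin receptor, had 634 TPM in the male choroid plexus and 8.97 in the proximal tubule (10599 and 68 counts), and was 70.7-fold lower (log2 ratio -5.99, counting interval of the ratio -6.51 to -5.80). RPS10 ENSRNOG00000052141 had 971 counts in the male tissue and 0 in the tubule and was at least 136-fold lower. In the 3 choroid plexus libraries RPLP0 ran from 648 to 796 TPM and RPSA from 537 to 711 TPM. RPLP2 and this RPS10 ID rest on fewer counts. RPLP2 has the same counts as a second ID, and RPS10 has a second ID under its symbol. Chosen after their values were seen, RPL8 (312 and 13.0 TPM), RPL13 (798 and 37.7 TPM) and RPS2 (553 and 60.2 TPM) were also 24.0-fold, 21.2-fold and 9.18-fold lower.

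At the other end, RPS28 had 267 TPM in the male choroid plexus and 3648 in the proximal tubule and was 13.7-fold higher. RPL35, a large subunit protein near the exit of the nascent chain, had 831 and 9964 TPM (12.0-fold), and RPS3A of the small subunit had 321 and 3835 TPM (12.0-fold, 5966 and 32438 counts). RPL36A had 96.1 and 956 TPM (9.94-fold), and RPL7 had 77.6 and 769.8 TPM (9.92-fold, 8503 and 39292 counts). RPL41 had 3370.2 and 12031 TPM and was 3.57-fold higher. RPS28, RPL35, RPS3A, RPL36A and RPL7 were also above the male choroid plexus with mitochondrially encoded genes kept, at 1017, 2778, 1069, 267 and 215 TPM against 244, 762, 294, 88.1 and 71.1 TPM. Of the 70 IDs for which a counting interval could be given, it lay above 0 for 49 and below 0 for 21 and held 0 for none, so the split within the set was far larger than counting error.

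The split ran through both subunits: 19 of 30 small subunit IDs and 23 of 40 large subunit IDs were at least 2-fold higher and 5 and 9 were at least 2-fold lower, with medians of 1.65 and 1.58. The pyrimidine run was found on both sides of it: of the symbols with 1 ID and a RefSeq start, 20 of 31 that were at least 2-fold higher and 9 of 11 that were at least 2-fold lower held a run of at least 8. The 11 include RPS6, whose sum with the unnamed ID had a log2 ratio of 2.40. Counts and effective length, which had a rho of 0.58 in the male and 0.61 in the FACS library, had one of 0.01 in the proximal tubule.

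The other lists held genes on both sides as well, around lower medians than the ribosomal protein genes, and are set beside the 12.1% of all genes that were at least 2-fold higher and the 71.0% that were at least 2-fold lower. In the translation factors the median was -1.90, with 5 of 25 at least 2-fold higher (20.0%) and 16 at least 2-fold lower (64.0%), shares near those of all genes, from EIF4G1, listed at 0 in the tubule, to EIF3EL1 at 2.66. The mitochondrial ribosome had a median of -0.27 (9 of 26 or 34.6% higher, 12 or 46.2% lower, from MRPL33, listed at 0, to MRPS36 at 3.12), and oxidative phosphorylation one of 0.31 (29 of 75 or 38.7% higher, 28 or 37.3% lower, from COX8B, listed at 0, to UQCRB at 4.59). The other oligopyrimidine genes had a median of 0.14 (5 of 14 or 35.7% higher and as many lower, from VIM, listed at 0, to NPM1, a nucleolar chaperone of ribosome assembly, at 3.08). Of the 5 assembly genes, 3 were higher and 2 lower, with NOP53 listed at 0. Genes that nearly every cell uses, EIF4G1 and RPLP2 among them, were thus listed at 0 in this library, and a 0 there cannot be read as a gene that is off. The library held 7352952 counts outside the mitochondrially encoded genes. RPS6 was listed at 0 in the FACS library too, which held 22765744 such counts. Why these IDs had no counts was not tested.

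For the IDs of short effective length the values hung on that length. RPL36 had an effective length of 53.2 bases in the male and 36.4 in the proximal tubule library, with 3159 TPM in the male, 3319 in the female, 545 in the FACS and 352 in the proximal tubule library (4119, 4096, 575 and 483 counts). RPS21, with 11.4 bases in the male and 5.21 in the tubule library, had 1858, 2056, 267 and 127 TPM from 518, 539, 44 and 25 counts. Both were high in the whole tissues and low in the other 2 libraries. With mitochondrially encoded genes removed they were still lower in the tubule than in the male tissue, RPL36 at 1263 against 3448 TPM and RPS21 at 456 against 2028 TPM. RPL38, a large subunit protein known from the Tail-short mouse, had an effective length of 3.72 bases in the male library and 36.0, 34.9, 0 and 0.39 counts per ID, from which come 395, 407, 0 and 8.15 TPM. No direction can be read for it at this depth per length. The RPL35AL1 IDs had 207, 241, 168 and 362 TPM each.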

How the data were processed

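RNA-seq was done on 4 libraries, each a pool of rats and the only one of its condition. The authors mapped the paired-end reads to Rnor_6.0 (STAR 2.7.2a) and quantified them with RSEM 1.3.3. They deposited 3 values per gene ID that were used here, the expected count (an estimate, divided among genes that share reads), the TPM (scaled to sum to 1000000) and the effective length. A deposited FPKM column was left aside. Strandedness is not given in the sources used here, so overlapping and antisense genes are uncertain.

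Names came from the paper's list. Shares, medians and Spearman correlations were computed in pandas 2.3.3, numpy 2.4.6 and scipy 1.17.1 under Python 3.11.15 (figures: matplotlib 3.10.9). Log2 ratios are of TPM with 1 added, over genes at or above 0.5 TPM in either library. Folds of single genes are ratios of TPM with nothing added, and their intervals are exact 95% intervals of a ratio of 2 counts, on that scale. A 2-fold threshold was used for calls. For the proximal tubule, 13 mitochondrially encoded genes were removed and the rest rescaled. Depth was 23873318 to 28324976 counts per library. The computation of log2 ratios and the intervals of a count ratio were tested on simulated data, and the other steps were not.

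Named were RPS6, RPL38, the 5 highest and 3 lowest members in male tissue, the 5 largest and 5 smallest ratios per comparison, stalk genes, like genes and copies, short members, and both ends of each other list. Some items that this rule names are not reported here. Others are said to be chosen later. Members, lists and tests were chosen with earlier results of these data known. Proteins were not compared because their sequences were not used here. The alternatives tried are in the closing section.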

Additional observations from a re-analysis of the deposited data

How the results depend on the processing

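No paired analysis was possible because each condition is 1 library. The median log2 ratio of the members relative to all genes was 0.51 for the FACS cells, 0.15 for the female and 3.78 for the proximal tubule. For the FACS cells it was 0.61 with a pseudocount of 0.1 and with a cut-off of 5 TPM, 0.58 with the 10 highest genes of each library removed, 0.36 against genes of at most 1000 bases, 0.58 against the named list and 0.38 with the female tissue in place of the male. Without a filter on low values it was -0.08, and for the female -0.01, since the median of all genes is then 0 because most IDs have no counts. Against short genes the female value was 0.02. For the proximal tubule it was 5.78 and 4.37 with pseudocounts of 0.1 and 0.5, 1.51 without a filter, 4.65 with a cut-off of 5 TPM, 4.46 in counts scaled to a common total, 2.50 with mitochondrially encoded genes kept, 3.91 without shared symbols, 3.01 against short genes, 5.68 against the named list, 3.88 without members at 0 and 3.54 against the female tissue. The comparisons with the named list and without members at 0 were added after the data were seen.

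Counts of members moved as follows. At least 2-fold lower in the FACS cells were 7 with the short members included, and at least 2-fold higher was 1 without shared symbols, where the female had 0. With mitochondrially encoded genes kept, 13 were higher and 28 lower in the proximal tubule. The share of TPM in the male, female, FACS and tubule libraries was 1.28, 1.39, 1.48 and 1.79% in counts, 4.70, 4.66, 4.22 and 15.3% without mitochondrially encoded genes, 6.68, 7.26, 8.17 and 14.7% without the 10 highest genes and 4.89, 4.99, 4.08 and 4.38% with the short members. The standard deviation of log2 values was 1.15, 1.11, 1.40 and 2.06 in counts scaled in that way, and 1.01 in the FACS cells with shared symbols summed. Apart from the cases named as due to fewer or other genes in the background, the cause of these moves was not tested.

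With 1 library per condition, the data limit every difference to these pools. Counting error is small at a median of 3732 to 4238 counts per member, and does not include the differences between animals, preparations or library runs. Genes of short effective length and genes with copies carry an error that counts do not show.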
